A study of Mus musculus with 2 samples.

Results

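The genes described here are the carriers and oxidoreductases that handle retinoids, aldehydes, carbonyl compounds and steroids, and they were taken from the table of both libraries by the start of their symbol. The symbols were those beginning with Aldh, Akr, Rdh, Dhrs or Crabp, those beginning with Adh, Rbp, Cbr, Hsd or Bco followed by a digit, and Stra6. This gave 93 genes of the 18919 in the table. The rule itself used no expression value, but it was set with earlier results of these data known. The RNA came from the intestine of mice on a C57BL/6 background at 2 months of age. The control pool had the genotype APCmin, a germline truncation of the tumour suppressor Apc that leads to intestinal adenomas, and the knockout pool had the genotype APCmin; Setd2IEC-/-, in which Setd2, a histone methyltransferase gene, was also deleted in IEC, read here as intestinal epithelial cells. Each pool was 1 library from the mixed RNA of 3 littermates, so both groups carry the Apc mutation, no difference has a replicate check, and no p-value is given. The labels name neither the Cre line nor the segment of intestine, and the cells outside the epithelium keep Setd2.

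Retinol and provitamin A carotenoids reach the body through the small intestinal enterocyte. There Bco1 splits beta-carotene into retinaldehyde, Rbp2 binds retinol and retinaldehyde inside the cell, and Lrat esterifies retinol for export in chylomicrons. A smaller flow is oxidised, first to retinaldehyde by retinol dehydrogenases of the Rdh, Dhrs and Adh families and then to retinoic acid by Aldh1a enzymes. The same enzyme superfamilies clear alcohols, dietary and lipid-derived aldehydes and carbonyls, and interconvert active and inactive steroids.

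Of the 93 genes, 73 reached an FPKM (fragments per kilobase of transcript, scaled to the mapped total) of 1 in either library and are called measured below. Ratios are knockout over control. For the log2 ratio each value was first raised by 1 FPKM, the pseudocount, and a gene was counted as higher or lower when it was at least 2-fold apart on that scale. Beside it stands the ratio of expected counts, scaled to the library totals of 8809678 in control and 8646358 in knockout tissue, with its 95% exact Clopper-Pearson interval. This interval covers counting error only, and the spread between mice or pools is not in it. In bulk tissue, fewer cells of a type and less RNA per cell cannot be told apart. Setd2 itself was at 6.87 FPKM in control and 3.47 in knockout tissue, a count ratio of 0.504 (0.432 to 0.587).

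Of the 73 measured genes, 1 was higher by the 2-fold rule, Akr1b8, against 2.78% of the 13253 measured genes of the whole table. At least 2-fold lower were 2, Bco1 and Aldh1a7, against 1.28% of all measured genes. The other 70 lay within 2-fold. The families were shifted to lower values within that range: 47 of the 73 had a log2 ratio below 0, against 37.2% of all measured genes, and their median log2 ratio was -0.07, against 0.08 over all. The counting interval lay below 1 for 29 of the 73, against 12.5% of all measured genes, and above 1 for 11, against 28.0%. The interval narrows as counts grow, and 16 of the 73 had a mean of 100 FPKM or more. Scaled by the median ratio of all genes, which moves every log2 ratio down by about 0.1, 55 of the 73 were below 0, against 49.9% of all measured genes under the same scaling. Together the 93 genes made up 2.30% of the summed FPKM of control tissue and 1.66% of that of knockout tissue, and Rbp2 alone 1.19% and 0.706%.

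**Figure D1:**
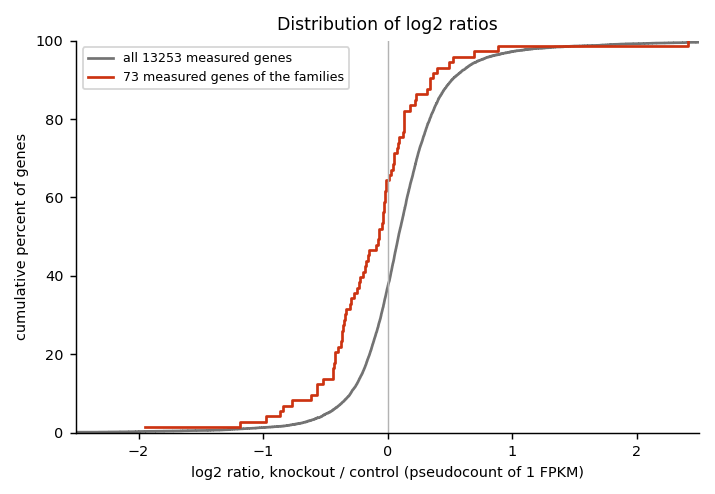
Cumulative percent of genes (vertical axis) against the log2 ratio of knockout over control with a pseudocount of 1 FPKM (horizontal axis), for the 73 measured genes of the families and for all 13253 measured genes. Around the middle of the range the curve of the families lies to the left of that of all genes, with medians of -0.07 and 0.08.

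Markers of other cells and tissues moved between the same pools. Of 14 enterocyte markers, which were all measured, 13 were below 0, with a median log2 ratio of -0.42, and their summed FPKM was 33069 in control and 24189 in knockout tissue, a count ratio of 0.756. Summed goblet and Paneth cell markers had count ratios of 0.621 and 0.560. Of 7 goblet markers 5 were below 0 and 2 above 0, and all 5 Paneth markers were below 0. All 5 stem cell markers were above 0, with a summed count ratio of 1.24. All 12 markers of pancreatic acinar cells were past 2-fold and higher in knockout tissue, with a summed FPKM of 66.39 in control and 2628 in knockout tissue. Of 8 stomach markers 6 were measured, all above 0, with sums of 2.54 and 61.87 FPKM over the 8. Of 5 red cell markers 4 were measured and all 4 were higher (sums of 66.06 and 239.9 FPKM). Fibroblast markers summed to 122.8 and 138.2 FPKM and smooth muscle markers to 443.5 and 441.9 FPKM. Of 6 adipocyte markers 2 were measured, both below 0 (sums of 26.43 and 21.59 FPKM over the 6), and Retn was at 0 in both libraries. The part of cell composition in the values below was not tested.

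Both carotenoid oxygenases were lower in the knockout pool. Bco1, which cleaves beta-carotene at its centre to yield retinaldehyde (gene identifier 63857, mm10 chromosome 8, 117095851 to 117133720), was at 7.14 FPKM in control and 1.11 in knockout tissue, from 147 and 22.4 expected counts, which are fractional, as RSEM gives where reads fit several genes. That was 6.43-fold lower, a count ratio of 0.155 (0.0927 to 0.240) and a log2 ratio of -1.95, the lowest of the 73. Bco2, the mitochondrial enzyme that cleaves carotenoids off centre (chromosome 9, 50533087 to 50555214), was at 59.3 FPKM in control and 46.25 in knockout tissue, a ratio of 0.780 (0.712 to 0.854). The single enterocyte markers had count ratios from 0.517 for Ace to 1.19 for Alpi.

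The cellular retinol carrier of the enterocyte was the most abundant gene of all these families and was also lower. Rbp2 (gene identifier 19660, chromosome 9, 98490537 to 98509771) was at 6183 FPKM in control and 3621 in knockout tissue. By its mean over both it ranked number 4 among all measured genes. Its 35303 and 20286 counts gave a ratio of 0.585 (0.575 to 0.596) and a log2 ratio of -0.77, within 2-fold. The fatty acid carriers of the same protein fold were lower too, Fabp1 at a ratio of 0.653 (0.638 to 0.667) and Fabp2 at 0.653 (0.641 to 0.664), both of them in the enterocyte list.

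The promoters of Bco1, Akr1b8 and Rbp2 were picked with their values in view. These genes had the lowest log2 ratio, the highest log2 ratio and the highest abundance of the families. Each line gives the 250 bases before an annotated start from RefSeq on GRCm38.p6, 5′ to 3′ on the plus strand. Capitals mark AGGTCA, the half-site bound by nuclear receptors such as the retinoid X receptor, and TTTATNG, a core bound by the intestinal factor Cdx2, each on either strand. The antioxidant core TGACNNNGC was searched too and was in none of the 3.
Bco1 promoter, chr8:117095615-117095864: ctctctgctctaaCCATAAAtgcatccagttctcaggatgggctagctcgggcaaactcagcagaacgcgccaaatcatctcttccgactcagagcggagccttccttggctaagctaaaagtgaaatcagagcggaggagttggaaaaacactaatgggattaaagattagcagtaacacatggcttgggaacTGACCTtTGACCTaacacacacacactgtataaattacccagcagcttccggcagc
Rbp2 promoter, chr9:98490287-98490536: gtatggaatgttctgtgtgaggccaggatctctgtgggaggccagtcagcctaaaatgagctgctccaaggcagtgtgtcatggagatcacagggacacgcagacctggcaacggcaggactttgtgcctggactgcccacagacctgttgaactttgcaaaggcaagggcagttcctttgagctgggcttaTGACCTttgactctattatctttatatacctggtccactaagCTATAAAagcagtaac
Akr1b8 promoter, chr6:34353896-34354145: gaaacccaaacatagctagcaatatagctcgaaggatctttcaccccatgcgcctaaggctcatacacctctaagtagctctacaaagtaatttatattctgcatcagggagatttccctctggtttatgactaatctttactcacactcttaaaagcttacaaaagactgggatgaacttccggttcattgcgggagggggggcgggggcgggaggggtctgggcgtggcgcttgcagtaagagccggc

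The Bco1 start used by the table lies inside the gene span given above, so the last 14 bases of its window are past the outermost start. The Bco1 window held 1 Cdx core from -237 to -231 and 2 copies of the half-site on the opposite strand, from -56 to -51 and from -49 to -44 before the start, as a direct repeat spaced by 1 base. Only 10 of 27025 promoters in the RefSeq table (0.0370%) held such an exact repeat on either strand. Among the 72 genes of the families that could be matched to the table, Bco1 was the 1 that held it. The repeat was not among the planned motifs, and Bco1 was shown for its low ratio, so this rarity tests nothing. The Rbp2 window held 1 half-site from -58 to -53 and 1 Cdx core from -16 to -10. The Akr1b8 window held neither. The window of Aldh1a7, the other gene at least 2-fold lower, is not shown. It held no half-site and 1 Cdx core from -245 to -239. Over all promoters, the half-site was in 13.8%, the antioxidant core in 10.1% and the Cdx core in 10.2%. Of the 72 promoters of the families, 14 held the half-site (19.4%), 6 the antioxidant core (8.33%) and 8 the Cdx core (11.1%). A match describes the letters only, and binding was not measured. On the opposite strand the half-site reads TGACCT and can overlap the antioxidant core.

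The other retinoid carriers were much less abundant. Rbp7, a cellular retinol-binding protein known from endothelium and fat (chromosome 4), was at 15.74 FPKM in control and 7.51 in knockout tissue, from 79 and 37 counts, a ratio of 0.477 (0.314 to 0.714). Its log2 ratio of -0.98 was just inside the 2-fold limit. The sums of the 6 endothelial markers were 27.49 and 37.75 FPKM and those of the 6 adipocyte markers 26.43 and 21.59 FPKM. Only 2 of these adipocyte markers were measured, and Fabp4 alone (23.01 and 19.35 FPKM) made up most of their sum. Stra6, the membrane receptor for retinol-binding protein, was at 0.49 FPKM in control and 1.4 in knockout tissue, from 13 and 34 counts, a ratio of 2.66 (1.37 to 5.5). It was counted as measured through the knockout pool alone. Rbp4, the plasma carrier made by liver and fat, was at 1.99 FPKM in control and 1.9 in knockout tissue, and the interval of its ratio (0.440 to 2.06) held 1. Of the cellular carriers of retinoic acid, Crabp1 had 1 and 3 counts and Crabp2 had 0 in both libraries.

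**Figure D2:**
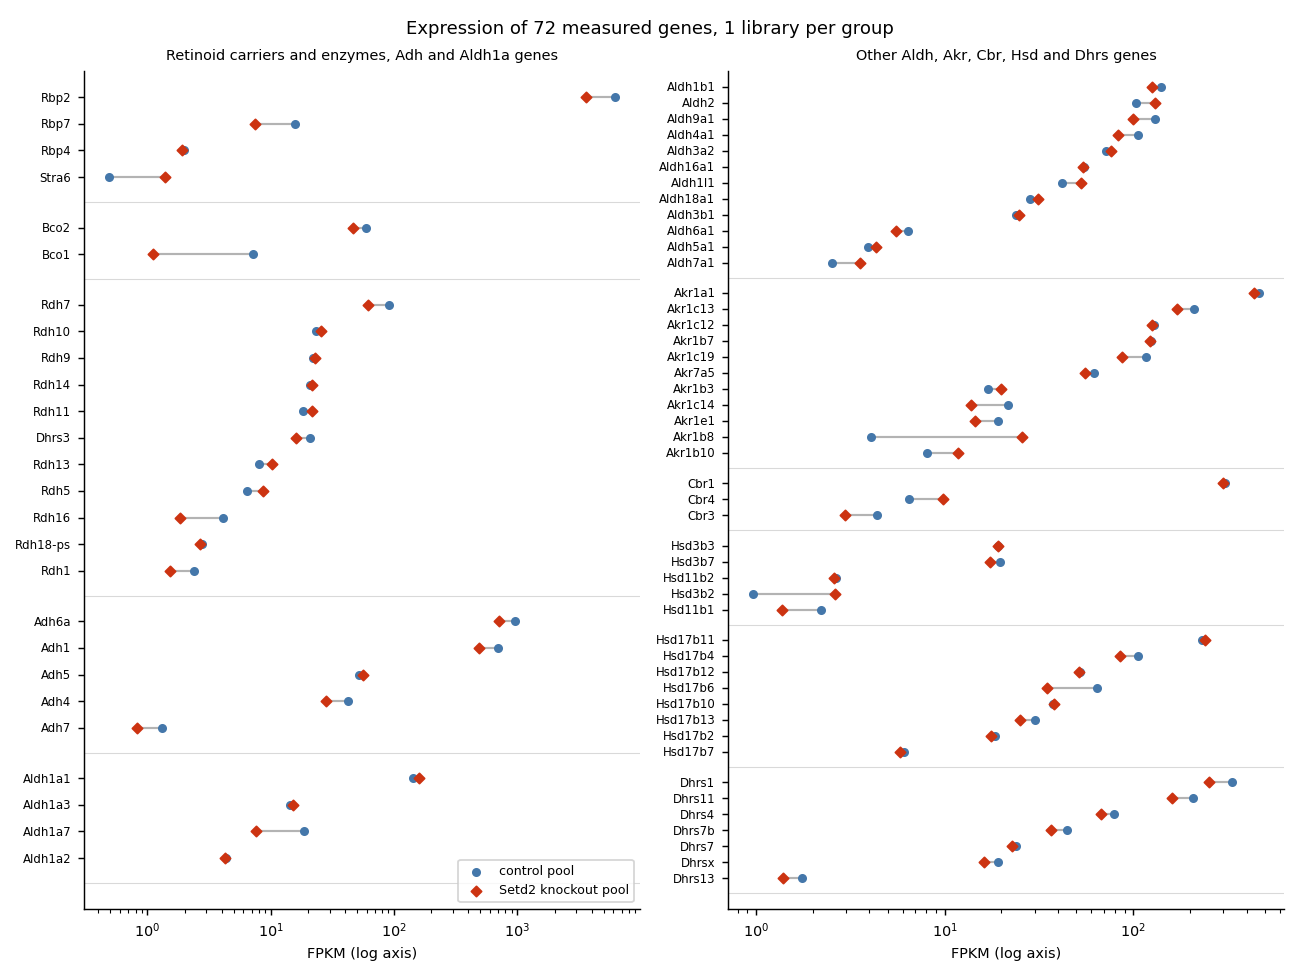
FPKM on a log axis of 72 of the 73 measured genes in the control pool (blue circles) and the knockout pool (red diamonds), 1 library each, with lines dividing the enzyme groups. Rbp2 stands above all others at 6183 and 3621 FPKM, and the widest gaps are those of Bco1 (7.14 and 1.11) and Akr1b8 (4.06 and 25.83).

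Retinol dehydrogenases went both ways, with 5 of the 11 measured below 0, 6 above 0 and none past 2-fold. Of the 4 with an interval below 1, 3 lay together on chromosome 10. Rdh7, the most abundant of the group (127884027 to 127889247), was at 91.19 FPKM in control and 61.07 in knockout tissue, a ratio of 0.670 (0.613 to 0.731). Rdh16, whose enzyme oxidises retinol and steroids, was at 4.1 FPKM in control and 1.85 in knockout tissue, a ratio of 0.452 (0.320 to 0.633), and Rdh1 at 2.4 and 1.51 FPKM, a ratio of 0.627 (0.433 to 0.898). Of the Rdh16 transcript stretches of 50 bases 6.28% also occur in its neighbour Rdh9, and the summed counts of that pair, most of them from Rdh9, had a ratio of 0.925 (0.827 to 1.04). Outside that region Dhrs3, which reduces retinaldehyde back to retinol and is induced by retinoic acid in many tissues, was at 20.84 and 16 FPKM (0.785, 0.658 to 0.935). Rdh10, the main retinol oxidase of the embryo, was at 23.27 FPKM in control and 25.58 in knockout tissue, and its interval (0.968 to 1.25) held 1. The highest ratios of the group were those of Rdh5, an enzyme of the visual cycle, at 6.37 and 8.71 FPKM (1.37, 0.993 to 1.89), and of the mitochondrial Rdh13 at 8.04 and 10.23 FPKM (1.28, 1.06 to 1.53). Summed over the group the FPKM was 221.5 and 195.2, a count ratio of 0.898.

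The cytosolic alcohol dehydrogenases were lower apart from Adh5. Adh6a was at 958.9 FPKM in control and 710.6 in knockout tissue, a ratio of 0.741 (0.720 to 0.762). Adh1, the class I enzyme that oxidises ethanol and clears excess retinol, was at 701.05 and 487.3 FPKM, from 8257 and 5632 counts, a ratio of 0.695 (0.672 to 0.719). Adh4 was at 42.43 and 28.29 FPKM (0.667, 0.577 to 0.769). These 3 ratios were below the 0.756 of the summed enterocyte markers, and the intervals of Adh6a and Adh4 include that value. Adh7, an enzyme of the upper digestive tract, was close to the lower limit, with 24 and 15 counts and an interval of 0.311 to 1.26. Adh5, the ubiquitous formaldehyde dehydrogenase, was at 51.65 FPKM in control and 56.47 in knockout tissue, and its interval (0.987 to 1.21) held 1.

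Among the Aldh1a genes, which encode the enzymes that make retinoic acid and a mouse copy of one of them, the 2 neighbours on chromosome 19 differed in direction. Aldh1a1 (20492583 to 20643463), the most abundant, was at 141.5 FPKM in control and 160.5 in knockout tissue, a ratio of 1.13 (1.08 to 1.2). Aldh1a7 (20692953 to 20727556), a rodent duplicate of Aldh1a1, was at 18.46 and 7.53 FPKM (0.408, 0.331 to 0.499), with a log2 ratio of -1.19. Reads that fit both genes are divided between them: 151 of the 2017 different stretches of 50 bases in annotated Aldh1a7 transcripts (7.49%) also occur in Aldh1a1. Their summed counts were 2870 in control and 2957 in knockout tissue (1.05, 0.997 to 1.11). Aldh1a1 supplied most of these counts, so the sum does not check the value of Aldh1a7. Aldh1a2, at 4.35 and 4.28 FPKM, and Aldh1a3, at 14.24 and 15.15 FPKM, had intervals that held 1 (0.720 to 1.34 and 0.930 to 1.22). The sign of Aldh1a3 turned negative under scaling by the median ratio (-0.01).

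Other retinoid pathway genes that the symbols do not take were described alongside, from a list of 29 in the table, 22 of them measured. At least 2-fold higher were 3, and none was 2-fold lower, with a median log2 ratio of 0.05. Over all measured genes 2.78% were 2-fold higher and 1.28% lower, with a median of 0.08. The esterifying enzymes were lower: Lrat, at 11.22 FPKM in control and 8.08 in knockout tissue, had a ratio of 0.720 (0.629 to 0.823), and Dgat1, which can esterify retinol as well as make triglycerides and was the most abundant of the list, was at 423.8 and 347.8 FPKM (0.820, 0.791 to 0.851). Isx, the homeobox factor that represses Bco1 and Scarb1 in the intestine, was at 51.02 and 45.03 FPKM (0.881, 0.794 to 0.976). Scarb1, a receptor that takes up carotenoids and was picked with its values in view, was at 34.29 and 49.62 FPKM (1.45, 1.32 to 1.59). The ratios of Bco1 and Scarb1 lay on opposite sides of 1, and the part of Isx in either was not tested. Cyp26b1, which degrades retinoic acid, was at 2.44 and 1.92 FPKM (0.789, 0.581 to 1.07), and the receptor Rara was at 11.6 and 11.91 FPKM (1.02, 0.869 to 1.19). The highest log2 ratios were those of the pancreatic lipase Pnlip, which is a pancreas marker too (3.92 and 109.7 FPKM), and of Tgm2, a transglutaminase inducible by retinoic acid (25.11 and 52.74 FPKM, ratio 2.10, 1.93 to 2.29). The third gene past 2-fold, Ttr, the plasma partner of Rbp4 and a liver marker, was at 1.67 and 4.35 FPKM. Of the 6 liver markers, Apoc3, which enterocytes express too, was at 747.05 and 563.2 FPKM, and the other 4 were not measured, with Alb at 3 and 5 counts and Ahsg at 0 in both libraries.

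The other aldehyde dehydrogenases had 12 measured genes, 5 below 0, 7 above 0, a median of 0.07 and none past 2-fold. Those lower in the knockout pool included Aldh9a1, which oxidises an intermediate of carnitine synthesis, at 130.03 FPKM in control and 100.2 in knockout tissue (0.771, 0.731 to 0.812), and Aldh4a1, the mitochondrial enzyme of proline breakdown, at 105.7 and 82.98 FPKM (0.785, 0.744 to 0.828). Aldh1b1, a mitochondrial enzyme also used as a marker of colon tumours and stem cells, was the most abundant by its mean and was at 140.1 and 126.4 FPKM (0.902, 0.855 to 0.952). Higher were Aldh1l1, a folate enzyme, at 41.76 and 53.13 FPKM (1.27, 1.18 to 1.38), and Aldh7a1, of lysine breakdown, at 2.54 and 3.55 FPKM (1.44, 1.05 to 2.01). Aldh2, the mitochondrial acetaldehyde dehydrogenase, was at 102.97 and 130.6 FPKM (1.28, 1.21 to 1.35) and was picked with its values in view.

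The aldo-keto reductases held the one gene that was at least 2-fold higher. Akr1b8, an aldose reductase-like enzyme that reduces lipid-derived aldehydes (gene identifier 14187, chromosome 6, 34354146 to 34368461), was at 4.06 FPKM in control and 25.83 in knockout tissue, from 46.2 and 289 counts. That was a ratio of 6.37 (4.66 to 8.91) and a log2 ratio of 2.41. Its neighbour Akr1b10 was at 8.08 and 11.75 FPKM (1.45, 1.11 to 1.90). Of 1448 stretches of 50 bases in Akr1b8 transcripts 31 (2.14%) also occur in Akr1b10 and 3 (0.207%) in Akr1b7. The counts of Akr1b8 and Akr1b10 summed to 141 and 424 (3.07, 2.53 to 3.73), and those of Akr1b8 and the far more abundant Akr1b7 to 1394 and 1595 (1.17, 1.08 to 1.25). The pancreas markers, with sums of 66.39 and 2628 FPKM, were higher in the same pool.

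Of the 11 measured aldo-keto reductases, 8 were below 0. Akr1a1, the general aldehyde reductase and the most abundant, was at 464.7 FPKM in control and 434.9 in knockout tissue (0.936, 0.901 to 0.971). The lowest ratios were those of Akr1c14, a hydroxysteroid dehydrogenase that inactivates androgens and progestins, at 21.61 and 13.77 FPKM (0.637, 0.549 to 0.739), and of Akr1c19, at 116.8 and 86.88 FPKM (0.744, 0.683 to 0.811). Of the 3 measured carbonyl reductases none was past 2-fold. Cbr1, which reduces quinones and prostaglandins, was at 306.5 and 297.98 FPKM (0.972, 0.922 to 1.02). Cbr4, a mitochondrial reductase of fatty acid synthesis, was at 6.5 and 9.78 FPKM, from 63 and 93 counts (1.5, 1.08 to 2.11), and Cbr3 was at 4.39 and 2.98 FPKM with an interval (0.413 to 1.10) that held 1.

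A list of 25 antioxidant genes linked to the factor Nrf2, several of whose known targets are aldo-keto and carbonyl reductases, was set beside them. All 25 were measured, 2 were at least 2-fold higher, none was 2-fold lower, 17 were above 0, and the median was 0.20. Over all 13253 measured genes, 2.78% were at least 2-fold higher, 1.28% were 2-fold lower, 8287 were above 0, and the median was 0.08. Hmox1, which breaks down haem, was at 1.12 FPKM in control and 6.68 in knockout tissue (5.99, 3.50 to 10.9) and Ephx1, an epoxide hydrolase, at 10.76 and 25.6 FPKM (2.37, 1.97 to 2.86). Red cell markers, with sums of 66.06 and 239.9 FPKM, were also higher in the knockout pool, and a link to Hmox1 was not tested. Nqo1, a standard Nrf2 target, was at 29.83 and 31.23 FPKM, and its interval (0.911 to 1.2) held 1. The lowest ratios were those of Osgin1 (44.99 and 27.07 FPKM) and the glutathione transferase Gsta1 (589.8 and 408.4 FPKM), and Fth1, ferritin heavy chain, was the most abundant at 3591 and 5180 FPKM.

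**Figure D3:**
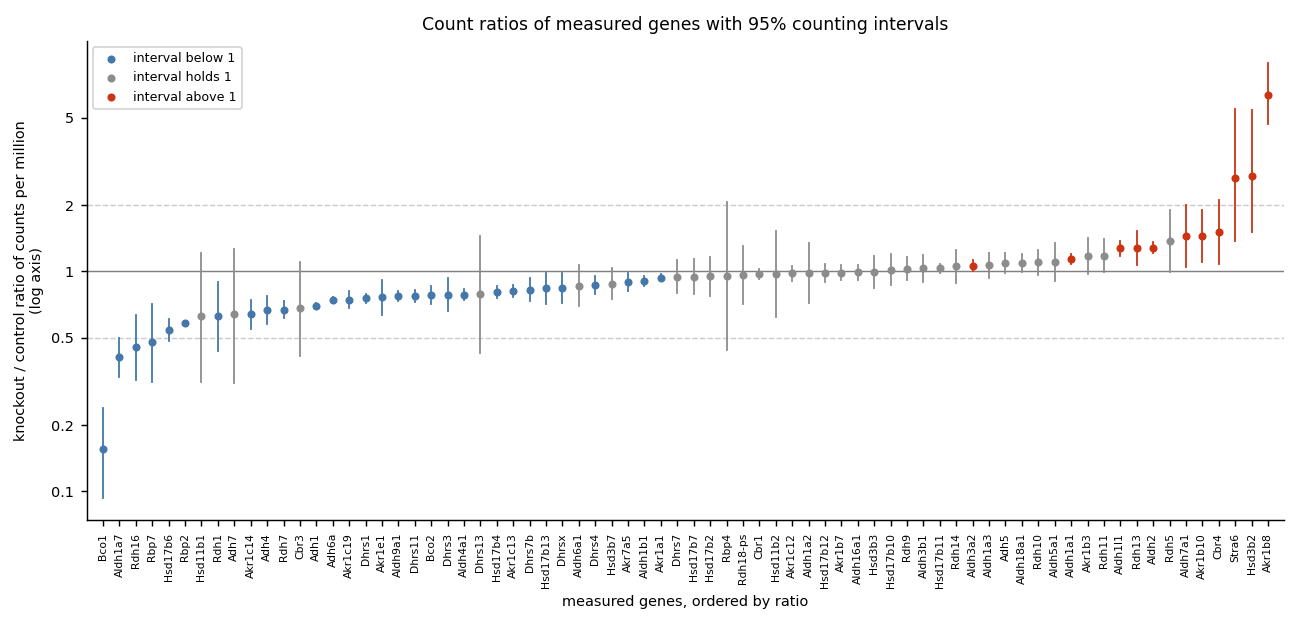
Ratio of CPM, knockout over control, on a log axis for 72 of the 73 measured genes in order of their ratio, with 95% counting intervals from 1 library per pool. The interval lies below 1 for 29 genes (blue), above 1 for 11 (red) and holds 1 for 32 of those drawn (grey), and dashed lines mark 2-fold.

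Steroid dehydrogenases of the Hsd11b and Hsd3b groups were of low or middling abundance. Hsd11b2, which inactivates glucocorticoids in aldosterone target tissues, was at 2.67 FPKM in control and 2.59 in knockout tissue (0.973, 0.622 to 1.52), and Hsd11b1, which regenerates them, at 2.2 and 1.38 FPKM (0.627, 0.314 to 1.21), so no difference was detectable at 16 to 44 counts. Hsd3b2, of the enzymes that complete active steroids, was at 0.97 and 2.63 FPKM, from 15.5 and 41.2 counts (2.71, 1.51 to 5.42); it was counted as measured through the knockout pool alone. Its neighbour Hsd3b3, at 19.1 and 19.19 FPKM, was the more abundant and had a log2 ratio of 0.01 that turned negative under 3 of the 4 other scalings. Of the Hsd3b2 transcript stretches 10.96% also occur in Hsd3b3. The summed counts of both had a ratio of 1.08 (0.920 to 1.27), and Hsd3b3 supplied most of them, so the sum does not check the value of Hsd3b2. Hsd3b7, of bile acid synthesis, was at 19.76 and 17.43 FPKM (0.881, 0.746 to 1.04).

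In the Hsd17b group 6 of 8 measured genes were below 0 and none was past 2-fold. Hsd17b6, which oxidises androgens and retinol and lies beside Rdh7 on chromosome 10 (127990931 to 128007648), had the lowest ratio, at 64.31 FPKM in control and 34.92 in knockout tissue (0.543, 0.483 to 0.610). Of its transcript stretches of 50 bases, 12.1% also occur in Rdh1, 7.70% in Rdh19 and 6.97% in Rdh18-ps. For Rdh9, Rdh7 and Rdh16 the shares were 5.76%, 4.79% and 3.34%. Its value is therefore uncertain, but these shares do not give the size of the error. The summed counts of Hsd17b6 and Rdh7 had a ratio of 0.620 (0.578 to 0.665), which does not check Hsd17b6 alone. Hsd17b4, a peroxisomal enzyme of fatty acid oxidation, was at 105.6 and 85.11 FPKM (0.806, 0.760 to 0.855). Hsd17b2, which inactivates oestradiol and testosterone in epithelia, was at 18.45 and 17.52 FPKM (0.95, 0.776 to 1.16). Hsd17b11, a lipid droplet enzyme, was the most abundant at 230.8 and 238.9 FPKM and Hsd17b10, a mitochondrial enzyme, was at 37.54 and 38.13 FPKM; both intervals (0.987 to 1.09 and 0.863 to 1.19) held 1, and both signs turned negative when scaled by the median ratio or by the TMM factor.

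All 7 measured genes of the remaining Dhrs group were below 0, as deposited and under the 4 other scalings, with a median of -0.23, none past 2-fold and 5 with an interval below 1. Dhrs1, an endoplasmic reticulum enzyme, was at 334.7 FPKM in control and 252.95 in knockout tissue (0.756, 0.722 to 0.791). Dhrs11, a cytosolic ketosteroid reductase, was at 206.4 and 159.6 FPKM (0.773, 0.729 to 0.820), and Dhrs13 (1.76 and 1.4 FPKM) and Dhrs7 (23.98 and 22.67 FPKM) had intervals that held 1. The count ratio of the summed group was 0.786, beside 0.756 for the enterocyte markers.

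Of 21 other steroid pathway genes in the table, 15 were measured, none past 2-fold, 6 below 0, with a median of 0.03. Over all measured genes 37.2% were below 0 and the median was 0.08. The cholesterol side-chain enzyme Cyp11a1 had 0 and 3 counts, at or under the floor of 3 counts in both libraries. Nr3c2, the mineralocorticoid receptor, was at 10.26 FPKM in control and 7.59 in knockout tissue (0.740, 0.631 to 0.868), Fdx1, the ferredoxin of mitochondrial P450 enzymes, at 28.82 and 22.21 FPKM (0.742, 0.628 to 0.877), Srd5a1, the steroid reductase that makes dihydrotestosterone, at 6.49 and 10.04 FPKM (1.55, 1.26 to 1.91), and H6pd, which supplies the cofactor of Hsd11b1, at 6.22 and 8.23 FPKM (1.33, 1.13 to 1.57). Por, the P450 reductase and the most abundant, was at 186.6 and 164.7 FPKM (0.882, 0.844 to 0.923).

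Many of these genes are neighbours: 41 of the 93 lay in 12 runs in which each start was within 200 kb of the next. Most runs hold genes that share a symbol stem, on which the rule selected, and no such share was computed for other genes. The run on chromosome 10 held 7 genes (Rdh1 to Hsd17b6, 127759726 to 128007648), of which 6 were measured and 5 were below 0, from -0.86 for Hsd17b6 to 0.04 for Rdh9, whose sign turned negative when scaled by the median ratio. The Adh run on chromosome 3 (138198064 to 138455499) had 4 of 5 measured genes below 0, all but Adh5 at its end. In the Akr1c run on chromosome 13 (4048991 to 4279399) all 4 measured genes were below 0. The Akr1b run on chromosome 6 (34303930 to 34423137) had 3 of 4 above 0, and Akr1b8 stood apart from its neighbours, which lay between -0.02 and 0.49. Reads are shared within the runs, since for example 28.6% of Akr1c12 stretches of 50 bases also occur in Akr1c13, so single values there are uncertain. The summed counts of Akr1c12 and Akr1c13 had a ratio of 0.876 (0.835 to 0.919).

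**Figure D4:**
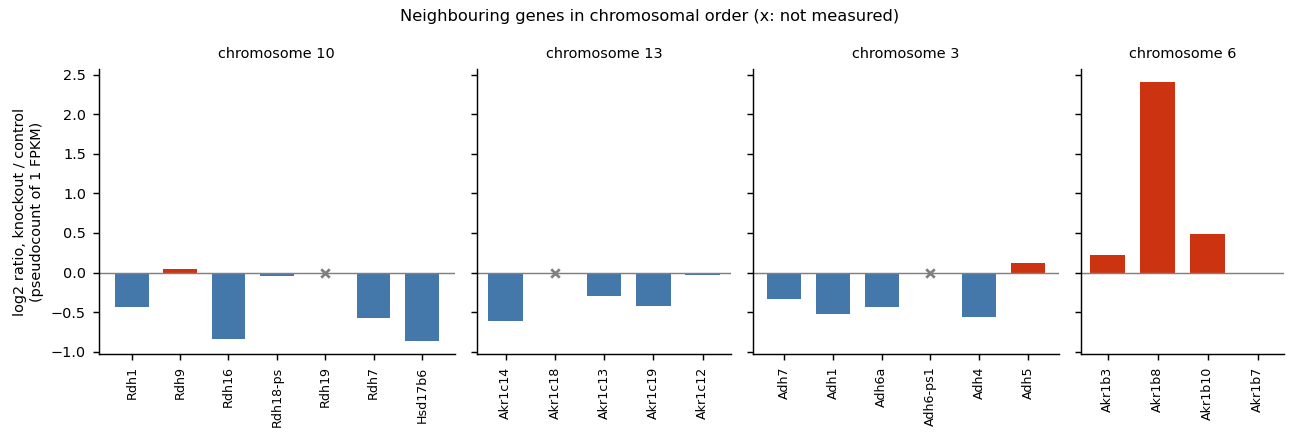
Log2 ratio of knockout over control with a pseudocount of 1 FPKM for the genes of 4 runs in chromosomal order, with crosses for genes that were not measured. Bars point down in all 4 measured genes of the Akr1c run on chromosome 13, and the bar of Akr1b8 on chromosome 6 reaches 2.41.

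The 20 genes that were not measured reached at most 0.82 FPKM and 20 expected counts in either library, and 3 of them, Crabp2, Aldh8a1 and Akr1c20, were at 0 in both. At a floor of 3 counts, levels below 0.341 CPM (counts scaled to the library total) in control and 0.347 CPM in knockout tissue were not detectable. Of the 73 measured genes, 3 were under 1 FPKM in 1 of the libraries, Stra6 and Hsd3b2 in control and Adh7 in knockout tissue.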

How the data were processed

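RNA-seq of intestine from 2 pooled samples was used. Per the labels' protocols, reads were mapped to mm10 with BWA/Bowtie and quantified by RSEM, with versions not given in the sources used here. Per the file headers, the sample files hold the authors' expected counts (RSEM divides reads that fit several genes) and FPKM, and the FPKM of both libraries stand side by side in the deposited series table. The transcript length column was read only to describe the table.

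The full stop that closes the symbol rule was read as punctuation. Members, lists and alternatives were chosen with earlier results of these data known. Named genes were those past 2-fold, those with a count ratio of at least 1.5 (or its inverse) whose interval excluded 1, in each enzyme group the most abundant and the 2 highest and 2 lowest, and a fixed set of retinoid and steroid genes; in the other lists the 2 highest, 2 lowest, the most abundant and a few fixed genes. Aldh2, Aldh8a1, Akr1c12, Akr1c13, Akr1c20, Rdh9, Rdh19, Rdh18-ps, Akr1b7, Scarb1, Ttr, Cyp11a1, Apoc3, Alb, Ahsg, Retn, Ace, Alpi, Fabp1, Fabp2 and Fabp4 fall outside this rule and were named with their values in view. Expected counts were rounded for intervals (scipy 1.17.1). TMM factors came from edgeR 4.0.16, which was used for scaling only. Calls and intervals were checked on counts simulated with counting error only, without spread between mice or shared reads. Positions and promoters came from RefSeq on GRCm38.p6, the same assembly as mm10, and matched 93 and 72 genes. Transcripts came from GENCODE and matched 92 genes. For 1 measured gene, counted in the totals, values are not reported here and it is left out of the plots of single genes. A planned comparison of protein sequences was not run.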

Additional observations from a re-analysis of the deposited data

How the results depend on the processing

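No paired analysis was possible because each group had 1 library, and no library could be left out. Over 9 alternatives to the pseudocount, filter and scaling, the median log2 ratio of the families lay between -0.18 and -0.06. The number of genes at least 2-fold higher was 1 as reported, 3 with a pseudocount of 0.1 FPKM (Hsd3b2 and Stra6 added), and 2 with a pseudocount of 0.5 FPKM, after rescaling to TPM and with CPM (Hsd3b2 added). The number at least 2-fold lower was 2 as reported and 4 with a pseudocount of 0.1 FPKM (Rbp7 and Rdh16 added). It was 3 with a pseudocount of 0.5 FPKM, after rescaling to TPM and under the median ratio and TMM scalings (Rbp7 added) and with CPM (Rdh16 added), and Bco1, Aldh1a7 and Akr1b8 passed in all 9. In an alternative chosen after seeing the data, the 53 measured genes with whole expected counts in both libraries (whole to the 2 decimals deposited) had 0 higher and 0 lower, since those 3 genes all have fractional counts, and 36 of the 53 were below 0 with a median of -0.15. Over all genes the counts were 369 higher and 170 lower as reported and 699 and 282 with a pseudocount of 0.1 FPKM, 191 and 84 from 5 FPKM upward, and 216 and 80 from 50 counts upward. Signs differed among the scalings for 8 of the 73 genes. The depth of 8646358 to 8809678 counts limits the genes under 50 counts, such as Hsd11b1, Hsd11b2 and Rbp4.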

Other observations

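Abundant genes were more often lower, and the split was chosen after the values were seen. Of the 16 genes of the families with a mean of 100 FPKM or more, 13 had a log2 ratio below 0 and the median was -0.22, while among all 849 measured genes at that level 52.4% were below 0 and the median was -0.02. Of the 57 less abundant ones 34 were below 0, with a median of -0.04, against 36.2% and 0.09 over 12404 genes.

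The sex of the mice is not in the labels. Xist, expressed from the inactive X chromosome of females, was at 32.37 FPKM in control and 26.15 in knockout tissue, and the Y-linked genes Ddx3y, Eif2s3y and Uty had at most 3 counts in either library.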
